A study of Rattus norvegicus with 48 samples.

Results

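rno-miR-17-5p, rno-miR-19a, rno-miR-19b and rno-miR-106b (miR-17-5p, miR-19a, miR-19b and miR-106b from here on), members of the miR-17/92 and miR-106b clusters that were chosen by name, were followed through rat liver regeneration. They were 4 of the 143 miRNAs with deposited values. The livers came from male Sprague-Dawley rats that were pair-fed a Lieber-DeCarli liquid diet containing ethanol (EtOH) or, as control, maltose-dextran in its place (CHO). Regeneration was started by partial hepatectomy (PHx), which took away 70% of the liver (the left lateral and medial lobes), and the part left behind was collected later. The 48 livers formed 16 groups of 3. On each diet, untreated rats were sampled at 0 h, which is resting liver, and, after PHx, at 6, 24 and 72 h. On each diet, rats injected with saline and rats injected with AM21 were sampled at 0 and 24 h. AM21 is a locked nucleic acid oligonucleotide antisense to miR-21, given into the peritoneum before surgery and again right after PHx, and the saline injections followed the same course. The labels do not tie samples to individual rats, so p-values measure the spread between these samples, and they do not say whether tissue at 0 h and later tissue came from the same rat. RNA was taken from whole liver, so fewer cells of a type and less RNA per cell cannot be told apart.

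The miR-17/92 cluster is made as a single transcript that is cut into several miRNAs, and its transcription is known to be driven by the transcription factors MYC and E2F. A miRNA finds its target messages mainly through its seed, a short stretch near its 5′ end, so miRNAs that share a seed share many targets. The miR-17 seed family is known for repressing the cell cycle inhibitor Cdkn1a and the death promoter Bcl2l11. The miR-106b cluster lies within Mcm7, which encodes a subunit of the helicase that opens DNA for replication. After PHx the normally resting hepatocytes enter the cell cycle and restore the lost mass.

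The mature sequences are shown because they split the measured members of both clusters into 3 seed families and show how little separates some probes. They are RefSeq sequences on the GRCr8 build, written 5′ to 3′ with the seed, bases 2 to 8, in capitals. The AAAGUGC family held miR-17-5p and miR-106b together with miR-20a, miR-20b and miR-93.
rno-miR-17-5p: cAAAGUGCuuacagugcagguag
rno-miR-106b-5p: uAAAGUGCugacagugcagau
rno-miR-20a-5p: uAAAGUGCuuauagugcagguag
rno-miR-20b-5p: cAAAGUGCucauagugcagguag
rno-miR-93-5p: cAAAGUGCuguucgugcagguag
The GUGCAAA family held miR-19a and miR-19b.
rno-miR-19a-3p: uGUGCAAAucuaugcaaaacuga
rno-miR-19b-3p: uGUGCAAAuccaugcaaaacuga
The AUUGCAC family held miR-25 and miR-32, which are relatives by cluster or seed only.
rno-miR-25-3p: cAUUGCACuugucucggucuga
rno-miR-32-5p: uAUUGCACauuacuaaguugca
miR-19a and miR-19b were identical at 22 of 23 positions and differed by U11C, with positions counted from 1 at the 5′ end and the base of miR-19a given first. miR-17-5p and miR-106b were identical at 18 of the 21 positions compared and differed by C1U, U10G and G20A. How far a probe also captures so near a relative was not tested. Deposited names without an arm (miR-19a, miR-19b, miR-106b, miR-93, miR-25 and miR-32) were taken as the older names of the arms printed here, and a single probe served miR-20a and miR-20b.

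On GRCr8 the miR-17/92 cluster held 6 hairpins within 785 bases of chromosome 15, at chr15:98587848-98588632 on the plus strand. Mature miR-17-5p lay at chr15:98587861-98587883 and miR-19a at chr15:98588179-98588201. miR-19b lay at chr15:98588486-98588508 and a second time on the minus strand of chromosome X at chrX:137343070-137343092. A copy of the miR-17-5p sequence also lay on chromosome X, in the Mir106a hairpin at chrX:137343615-137343637, so the probes for these miRNAs cannot tell the copies apart. The miR-106b cluster held 3 hairpins within 494 bases inside Mcm7 on chromosome 12, with mature miR-106b at chr12:22157103-22157123 on the minus strand. The other miRNAs of the clusters, such as miR-18a and miR-92a, were not analysed here.

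Values were log2 CPM, the log2 of a miRNA's counts as a share of the scaled total of its liver, and the counts behind them were recovered as whole numbers. A liver had 58168 to 267582 counts in total, with a median of 160078. miR-17-5p had 82 to 737 counts in a liver, with a median of 350.5, miR-19a 23 to 790 with 302.5, and miR-19b 31 to 522 with 237. miR-106b had 18 to 114 counts with a median of 54, the lowest of the 4. miR-122, which defines hepatocytes, took 42.1% to 68.8% of the counts. Replicate 2 of the untreated livers at 0 h stood apart on both diets, with the lowest totals of the resting livers (58168 and 92245 counts), and results on resting livers that changed without them are given both ways, in part by fits chosen after the data were seen. miR-21 had 15 to 32 counts in the AM21-treated livers and at least 120 in each other liver. The labels number the livers at 0 and 24 h in sets 1 to 3, each with 1 liver of all 12 groups at those times, and all livers at 6 and 72 h in set 4. Differences of 6 or 72 h from 0 h therefore cannot be told apart from a difference between sets. By contrast, 24 h against 0 h was balanced over sets 1 to 3, and 72 h against 6 h lay inside set 4. The main fits held no term for the set. Untreated 0 h livers of the same number deviated together between the diets (r of 0.52, 0.79 and 0.65 over the miRNAs). The fits took them as independent, so p-values of untreated differences from 0 h over both diets may be too small.

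**Figure D1:**
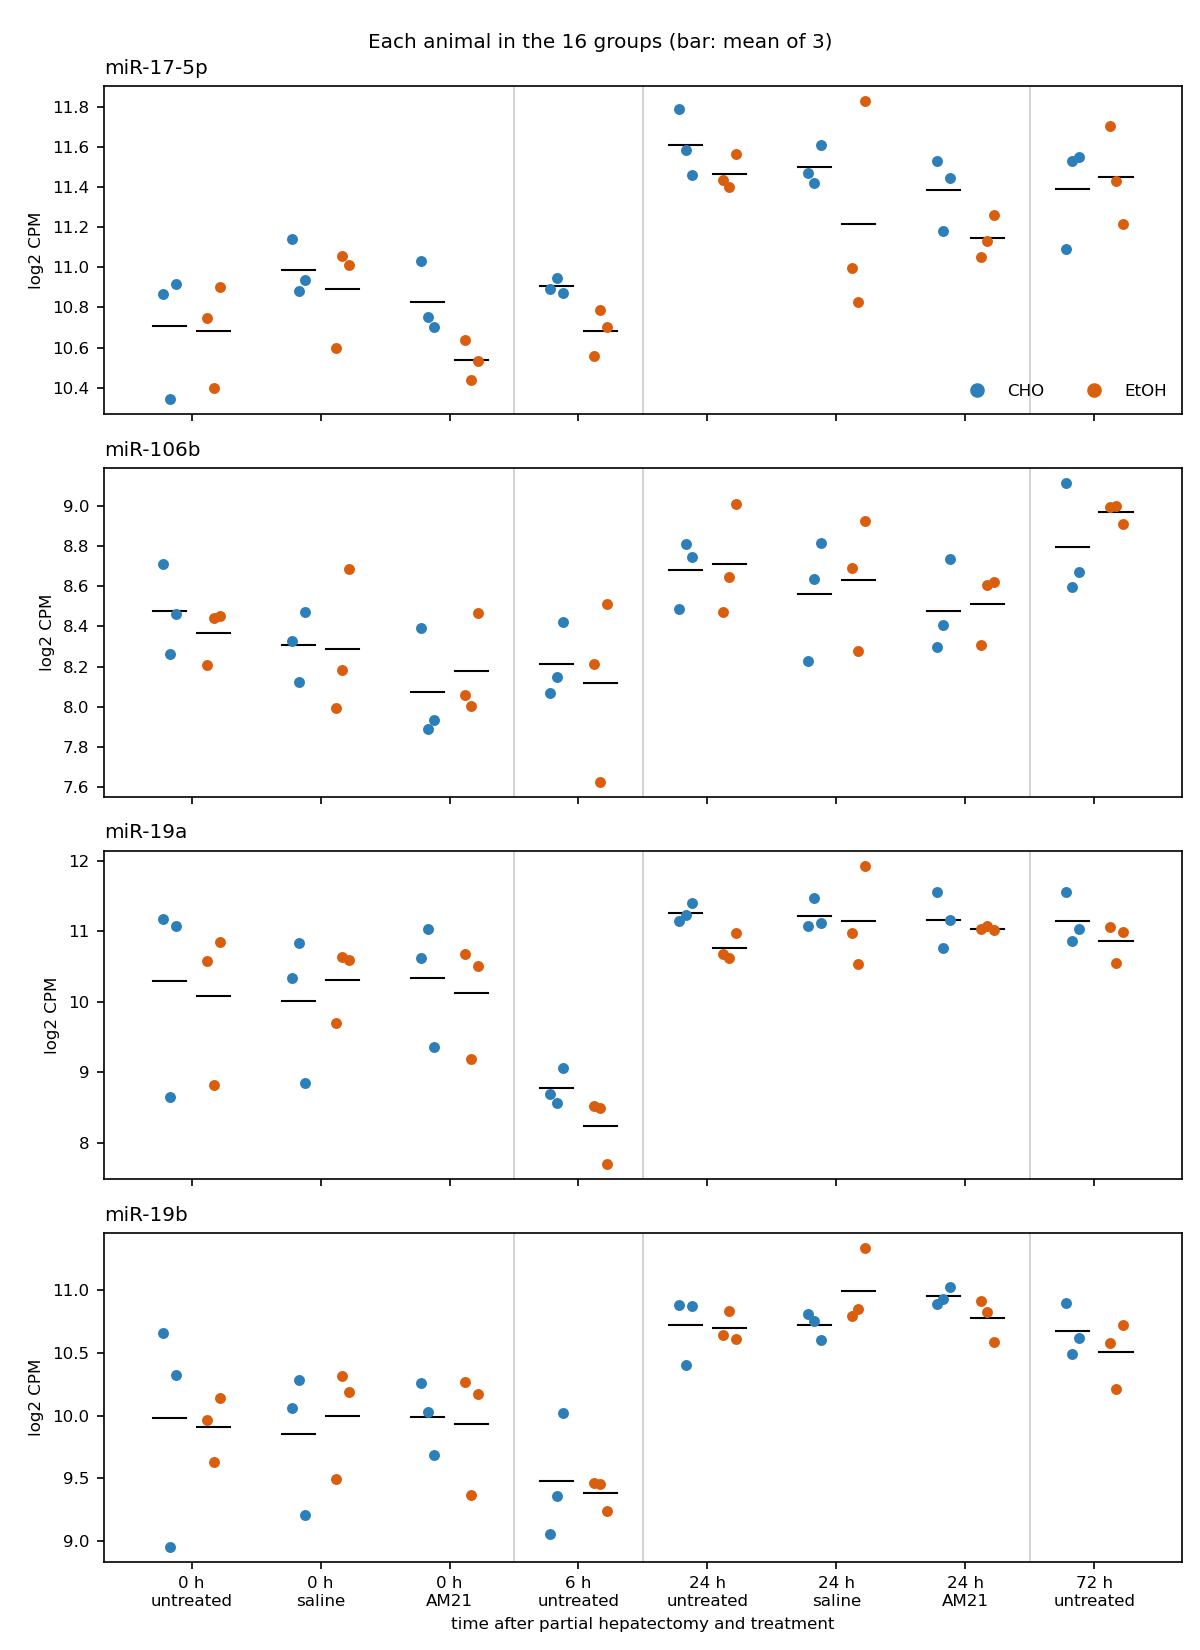
Level of each member in every liver (vertical axis, log2 CPM, a separate scale in each panel) over the 16 groups on the horizontal axis, with points for livers and bars for the means of 3 livers. At 6 h miR-19a lay between 7.69 and 9.07, below all but 3 of the 18 livers at 0 h, while miR-17-5p at 6 h lay between 10.56 and 10.95, within its range at 0 h.

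miR-17-5p, the first miRNA of its cluster, kept its resting level at 6 h and stood higher at 24 and 72 h on both diets. In untreated CHO-fed livers its levels at 0 h were 10.87, 10.34 and 10.92 log2 CPM, and in EtOH-fed livers 10.75, 10.40 and 10.90. At 6 h they were 10.89, 10.95 and 10.87 on CHO and 10.56, 10.79 and 10.70 on EtOH. The 6 h livers lay inside the range of the 18 resting livers of all treatments. At 24 h the levels were 11.79, 11.59 and 11.46 on CHO and 11.43, 11.40 and 11.56 on EtOH, and at 72 h 11.09, 11.53 and 11.55 on CHO and 11.71, 11.43 and 11.21 on EtOH. No untreated liver at 24 or 72 h was as low as the highest untreated one at 0 h. By limma over both diets, 24 h exceeded 0 h by 0.84 (SE 0.13, adjusted p = 0.000218, 1.79-fold), the smallest p among the 143 miRNAs in this comparison, in which 20.3% of them were called at an adjusted p under 0.05. Of the 143 miRNAs, 4.2% had untreated groups at 24 and 0 h that did not overlap. The difference of 72 h from 0 h was 0.73 (SE 0.13, adjusted p = 0.0001661), with 35.7% of all miRNAs called and 10.5% not overlapping. At 6 h the difference from 0 h was 0.10, with a 95% confidence interval of -0.17 to 0.37. The differences of miR-17-5p without replicate 2 of both diets at 0 h were -0.07 at 6 h, 0.68 at 24 h (adjusted p = 0.000723) and 0.56 at 72 h (adjusted p = 0.001253).

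miR-106b, with the same seed as miR-17-5p but a cluster of its own, was called higher at 72 h than at rest in the main fit. Its levels at 0 h were 8.71, 8.26 and 8.46 on CHO and 8.21, 8.44 and 8.45 on EtOH. At 6 h they were 8.07, 8.15 and 8.42 on CHO and 8.21, 7.63 and 8.51 on EtOH. At 72 h they were 9.11, 8.60 and 8.67 on CHO and 8.995, 8.998 and 8.911 on EtOH. Of the untreated resting livers, only replicate 1 on CHO, at 8.71, reached into the range at 72 h. The untreated 24 h livers spanned 8.47 to 9.01 and overlapped the resting ones. The difference of 72 h from 0 h was 0.46 (SE 0.15, limma adjusted p = 0.01775), and it was no longer called without CHO 72 h replicate 4_7 (0.38, adjusted p = 0.0574). Nor was it called with scaling by total counts alone (0.23, limma adjusted p = 0.3334) or with log10 total count as a covariate. Neither 6 h (-0.26, adjusted p = 0.1561) nor 24 h (0.27, adjusted p = 0.1742) passed the test in untreated livers alone. The difference at 72 h was 0.42 without replicate 2 of both diets at 0 h (adjusted p = 0.03674).

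miR-19a had the widest course of the 4. At 0 h its untreated levels were 11.18, 8.65 and 11.07 log2 CPM on CHO and 10.58, 8.81 and 10.85 on EtOH, so replicate 2 on each diet stood far below the other livers of its group. At 6 h the levels were 8.68, 8.56 and 9.07 on CHO and 8.51, 8.48 and 7.69 on EtOH, or 23 to 69 counts. The 6 h livers thus spanned 7.69 to 9.07, on both sides of those low resting livers at 8.65 and 8.81. At 24 h the levels were 11.15, 11.23 and 11.41 on CHO and 10.68, 10.62 and 10.98 on EtOH, and at 72 h 11.55, 10.86 and 11.04 on CHO and 11.06, 10.55 and 10.99 on EtOH. Over both diets, limma gave a difference of 6 h from 0 h of -1.69 (SE 0.35, 95% confidence interval -2.41 to -0.98, adjusted p = 0.002844), which is 3.23-fold lower and the largest difference of the 143 miRNAs, of which 24.5% were called. It was the only member called in that comparison. The livers overlapped, and the difference was larger without replicate 2 of both diets at 0 h (-2.42). Within the diets, the difference was -1.53 on CHO (adjusted p = 0.06316, with 2.1% of all miRNAs called) and -1.85 on EtOH (adjusted p = 0.03325, with 11.2% called). Without replicate 2 at 0 h both were called, at -2.36 on CHO (adjusted p = 3.814e-07) and -2.48 on EtOH (adjusted p = 1.541e-07). Those livers had the lowest miR-19a of the 18 at rest, so leaving them out took away much of the spread that the test weighs. These p-values are therefore no separate support for the difference. The call on EtOH was lost without EtOH replicate 1 at 0 h (adjusted p = 0.1201), without replicate 3 at 0 h (0.1849) or without replicate 4_6 at 6 h (0.1181), and when only the groups compared were fitted (0.1271). In untreated livers the differences of 24 and 72 h from 0 h were both 0.82 and did not pass the test (adjusted p = 0.09922 and 0.06672). A fit that also held log10 total count put them at 0.39 and -0.10 (adjusted p = 0.3349 and 0.864), so the direction at 72 h turned. They passed without CHO replicate 1, CHO replicate 3 or EtOH replicate 3 at 0 h, all of them high resting livers, which put each difference at up to 1.04. Without replicate 2 of both diets at 0 h they were 0.091 and 0.089 (adjusted p = 0.6962 and 0.7219), so that the excess of miR-19a over rest in untreated livers rested on those low resting livers.

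miR-19b, which shares the miR-19a seed, followed a flatter course. At 0 h its levels were 10.66, 8.95 and 10.32 on CHO and 9.97, 9.63 and 10.14 on EtOH, with replicate 2 again lowest on each diet. At 6 h they were 9.05, 9.36 and 10.02 on CHO and 9.46, 9.45 and 9.23 on EtOH, which overlapped the resting levels. The difference of 6 h from 0 h was -0.52 (SE 0.22, limma adjusted p = 0.06468). That p fell below 0.05 without CHO replicate 2 at 0 h, without EtOH replicate 2 at 0 h or without CHO replicate 4_3 at 6 h, over which the difference reached -0.77. At 24 h the levels were 10.88, 10.41 and 10.87 on CHO and 10.64, 10.83 and 10.61 on EtOH, or 0.76 above 0 h (SE 0.22, limma adjusted p = 0.01804). At 72 h they were 10.90, 10.49 and 10.62 on CHO and 10.58, 10.21 and 10.72 on EtOH, or 0.64 above 0 h (SE 0.22, adjusted p = 0.02339). The difference at 72 h was not called without CHO replicate 2 at 0 h (adjusted p = 0.06429), CHO replicate 4_7 at 72 h (0.0574) or EtOH replicate 4_12 at 72 h (0.05278). Without replicate 2 of both diets at 0 h, the differences of miR-19b were -0.84 at 6 h (adjusted p = 0.000277), 0.44 at 24 h (adjusted p = 0.05062) and 0.32 at 72 h (adjusted p = 0.1312). Those livers were the lowest of their groups in miR-19b, so the p-value at 6 h is no separate support.

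Over all 4 times, limma's F test called miR-17-5p, miR-19a and miR-19b on both diets and miR-106b on EtOH. The adjusted p on CHO was 0.002401 for miR-17-5p, 0.001957 for miR-19a, 0.009213 for miR-19b and 0.1019 for miR-106b, where 32.9% of the 143 miRNAs were called. On EtOH it was 0.001375, 0.001026, 0.006738 and 0.01136, where 39.9% were called. That miR-106b passed on a single diet is no difference between the diets, since no member's change over time differed between them by its own test.

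From 6 to 72 h, inside a single set, all 4 members rose and none of their groups overlapped. Over both diets limma gave 2.51 for miR-19a (SE 0.35, adjusted p = 5.574e-06, 5.70-fold), the largest difference of the 143 miRNAs. miR-19b rose by 1.16 (SE 0.22, adjusted p = 0.0002098, 2.23-fold). Of the AAAGUGC members, miR-106b rose by 0.72 (SE 0.15, adjusted p = 0.0003688) and miR-17-5p by 0.63 (SE 0.13, adjusted p = 0.0004337). Of all miRNAs, 24.5% were called higher at 72 h, 46.9% were called in either direction and 30.1% did not overlap. Within each diet the rise of miR-19a was 2.38 on CHO and 2.64 on EtOH, and that of miR-19b 1.20 and 1.12. All 4 of these values were called, where 30.8% of all miRNAs were called on CHO and 37.1% on EtOH. At 6 h miR-19a rested on as few as 23 counts. Total counts were 87009 to 196972 at 6 h and 163533 to 267582 at 72 h, and in a fit that held log10 total count as a term all 4 differences over both diets stayed called, with that of miR-19a down to 1.60 (adjusted p = 0.001959) and that of miR-19b to 0.68 (adjusted p = 0.03385). Within the diets that term left miR-19a at 1.40 (adjusted p = 0.05202) and miR-19b at 0.68 (0.1578) on CHO, and miR-19b at 0.68 (0.07892) on EtOH.

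**Figure D2:**
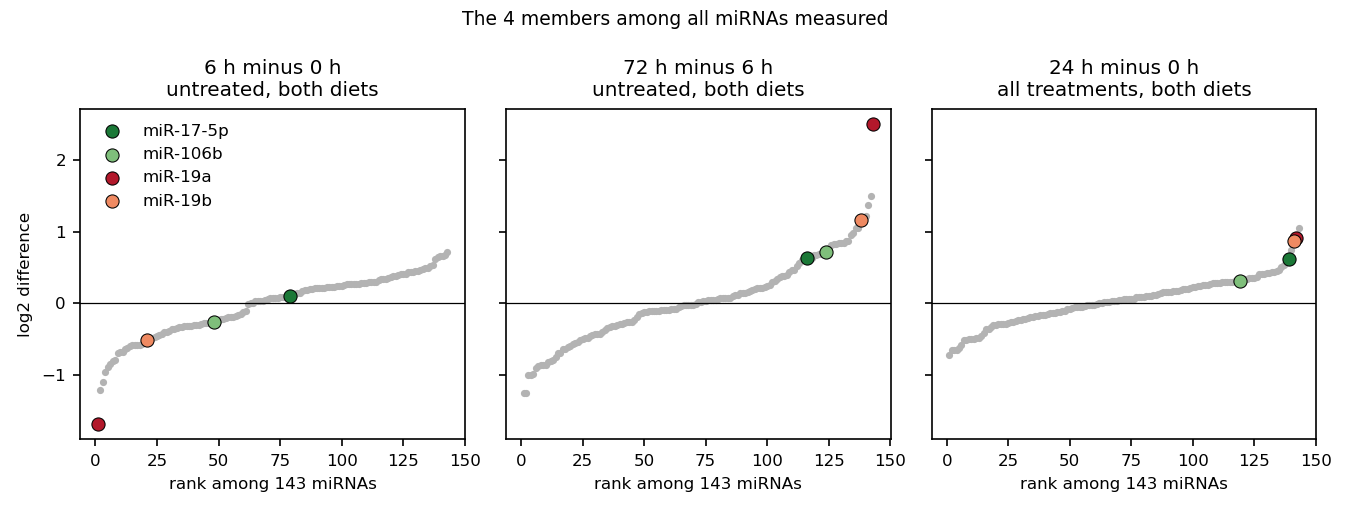
All 143 miRNAs ordered by their log2 difference (vertical axis) in 6 h minus 0 h and 72 h minus 6 h of untreated livers and in 24 h minus 0 h of 36 livers, with the 4 members marked. miR-19a stood at the lower end for 6 h minus 0 h (-1.69) and at the upper end for 72 h minus 6 h (2.51).

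Since the scaling of a liver cancels in the difference between a pair of its miRNAs, the members were set against each other in their changes. These 18 tests were chosen after the values were seen and permuted livers within diet and treatment. From 0 to 6 h the change of miR-17-5p (0.10) lay 1.79 above that of miR-19a (-1.69), which lies in the same cluster on chromosome 15 (exact permutation test, two-sided p = 0.005, the smallest that its 400 arrangements allow, adjusted p = 0.0129). The change of miR-19a lay 1.18 below that of miR-19b on the log2 scale (exact p = 0.005, adjusted p = 0.0129), although the mature forms differ at a single base. The gap between miR-19a and miR-106b was -1.43 and did not pass after adjustment (exact p = 0.05, adjusted p = 0.0818). These gaps without replicate 2 of both diets at 0 h were 2.36, -1.58 and -2.13, each at an adjusted exact p of 0.02 over 6 tests. The livers left out were the lowest at rest in miR-19a, so these values are no separate support. From 0 to 6 h time and set cannot be told apart, and a set difference of single probes would not cancel in these gaps. From 6 to 72 h, miR-19a rose by 1.88 more than miR-17-5p, 1.35 more than miR-19b and 1.79 more than miR-106b, each at exact p = 0.005 and adjusted p = 0.0129. The rises of miR-17-5p and miR-106b differed by -0.09 (exact p = 0.705). Background counts do not cancel as scaling does and would weigh most on low counts. Such were those of miR-106b and, at 6 h, those of miR-19a (23 to 69 counts), which enter most of these gaps. Their part in these gaps was not tested.

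At 24 h the rise could be followed in untreated, saline-treated and AM21-treated livers on both diets, 18 livers at each time. miR-17-5p spanned 10.34 to 11.14 at 0 h, with a median of 10.81, and 10.83 to 11.83 at 24 h, with a median of 11.44. miR-19a spanned 8.65 to 11.18 at 0 h (median 10.59) and 10.54 to 11.93 at 24 h (median 11.08), and miR-19b 8.95 to 10.66 (median 10.10) and 10.41 to 11.33 (median 10.83). miR-106b spanned 7.89 to 8.71 at 0 h (median 8.30) and 8.23 to 9.01 at 24 h (median 8.63). All 4 medians were higher at 24 h, and all 4 ranges overlapped. For miR-19b, 17 of the 18 resting livers lay below the lowest liver at 24 h, against 9 for miR-17-5p and 8 each for miR-19a and miR-106b. By limma on the 36 livers, 24 h exceeded 0 h by 0.91 for miR-19a (SE 0.23, adjusted p = 0.002013), 0.87 for miR-19b (SE 0.13, adjusted p = 3.391e-06), 0.62 for miR-17-5p (SE 0.08, adjusted p = 1.014e-06) and 0.31 for miR-106b (SE 0.09, adjusted p = 0.003969). All 4 were called, where 29.4% of the 143 miRNAs were called higher and 51.7% in either direction. All 4 were still called without replicate 2 of both untreated groups at 0 h, at 0.66, 0.76, 0.56 and 0.30 in the same order. By size of the difference in all 36 livers miR-19a was rank 2 of 143, miR-19b rank 3, miR-17-5p rank 10 and miR-106b rank 43.

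The 24 h rise was also read within each set. For miR-17-5p the mean difference was 0.54 in set 1, 0.61 in set 2 and 0.69 in set 3, and for miR-19b 0.71, 1.00 and 0.89. For miR-19a it was 0.56, 1.09 and 1.06, and for miR-106b 0.13, 0.41 and 0.40. All were above 0, and miR-19b was higher at 24 h in each of the 6 pairs of groups of each set. miR-106b was higher in 3 of 6 pairs in set 1 and in all 6 in sets 2 and 3.

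By treatment, the 24 h difference of miR-19b was 0.76 in untreated, 0.93 in saline-treated and 0.90 in AM21-treated livers. That of miR-19a was 0.82, 1.03 and 0.87, that of miR-106b 0.27, 0.30 and 0.37, and that of miR-17-5p 0.84, 0.42 and 0.59. The difference of miR-19b was called in each treatment and that of miR-17-5p in untreated and AM21-treated livers, while those of miR-19a and miR-106b were not, where 17.5% of all miRNAs were called in untreated, 9.79% in saline-treated and 14% in AM21-treated livers. Leaving out single livers moved the saline difference of miR-17-5p (adjusted p = 0.0535) between 0.27, without EtOH saline replicate 3 at 24 h (adjusted p = 0.158), and 0.52, and it passed without CHO saline replicate 1 at 0 h or EtOH saline replicate 1 or 2 at 24 h. In this fit of 36 livers, miR-19b in untreated livers was not called without CHO replicate 2 at 0 h (adjusted p = 0.05885), without EtOH replicate 2 at 0 h (0.05279) or without both (0.44, adjusted p = 0.1118). Without both, the miR-19a differences in saline-treated and AM21-treated livers were called (adjusted p = 0.01818 and 0.03792) with values as before, and so was that of miR-17-5p in saline-treated livers (0.02747). The livers left out enter none of these 3 differences. Leaving them out took away spread that the test weighs, so these p-values are no separate support. The order of the treatments was not the same for the members, and no difference between AM21 and the control livers in the 24 h change was called by limma for any of the 143 miRNAs (4 at an unadjusted p under 0.05). Between members, the change at 24 h of miR-106b was smaller than that of miR-17-5p by 0.30 (permutation test with 100000 draws, p = 0.00125, adjusted p = 0.0112). miR-19b exceeded miR-106b by 0.55 (p = 0.00014, adjusted p = 0.00252) and miR-19a exceeded it by 0.59 (p = 0.0109, adjusted p = 0.0246), which was 0.36 without replicate 2 of both untreated groups at 0 h (permutation p = 0.0502, adjusted p = 0.1 over 6 tests). miR-19a and miR-19b, which parted at 6 h, differed by 0.04 in their 24 h change (p = 0.776). miR-106b had 18 to 114 counts in a liver, and miR-21 kept 15 to 32 in AM21-treated livers. Background counts, which scaling does not cancel, would weigh most on such low counts, and their part in these gaps was not tested.

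**Figure D3:**
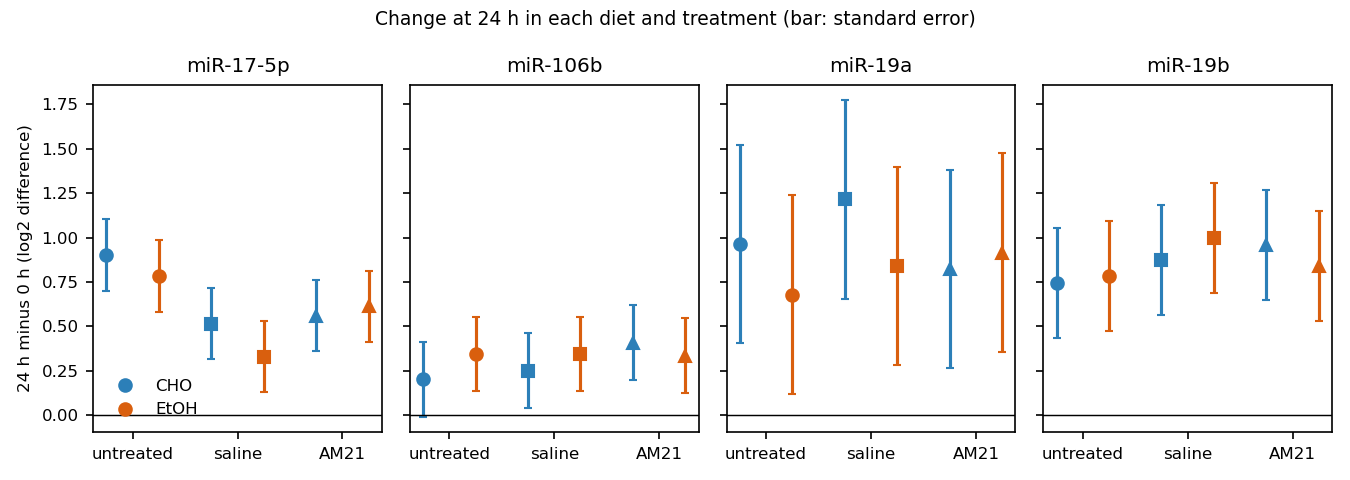
Difference of 24 h from 0 h (log2, vertical axis) for each member in the 6 combinations of diet and treatment, 3 livers at each time, with bars for the standard error from limma. The points of all members lie above 0, and those of miR-106b lie closest to it among the members on average (0.31).

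Resting liver was where the miR-19 pair varied most. At 0 h the spread of miR-19a within groups was an SD of 1.00, which ranked 2 of 143 after miR-21 (1.04), where the median of all miRNAs was 0.33. miR-19b had an SD of 0.54 (rank 12), while miR-17-5p, with 0.22 (rank 116), and miR-106b, with 0.25 (rank 106), were below that median. By 24 h the SD of miR-19a was 0.36 and that of miR-19b 0.19, and at 72 h that of miR-19a was 0.32. The SD at 0 h without replicate 2 of both untreated groups was 0.75 for miR-19a (rank 3) and 0.42 for miR-19b (rank 26), with a median of 0.28 over all miRNAs. The 6 resting livers lowest in miR-19a had 8.65, 8.81, 8.85, 9.18, 9.36 and 9.69 log2 CPM, and they were also the 6 lowest of 18 in miR-19b. They belonged to all 3 treatments and both diets. Both untreated ones had the lowest total counts at 0 h, 58168 and 92245, and the other 4 had 130953 to 185564, in ranks 8 to 14 of 18 from the lowest. miR-122 took 54.6% to 61.9% of the counts in these 6 and 42.1% to 61.4% in the other 12.

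After removing group means, miR-19a and miR-19b deviated together over the 48 livers, with Pearson's r of 0.84 (permutation p = 1e-05, the smallest that 100000 draws can give, adjusted p = 0.0001 over 10 relations) and Spearman's rho of 0.80. Without the 2 livers farthest from the median of miR-19a, r was 0.81, and within sets 1 to 4 it was 0.82, 0.85, 0.93 and 0.73. miR-17-5p and miR-19a had r of 0.55 (permutation p = 0.00421, adjusted p = 0.021) and rho of 0.47 (adjusted p = 0.0474). Their r was 0.51 without the 2 livers farthest from the median of miR-17-5p, which is not the miR-19a criterion used above. That relation held in sets 1 to 3 (0.75, 0.68 and 0.65) and not in set 4 (-0.36). The same was seen for miR-17-5p and miR-19b, with r of 0.44 (adjusted permutation p = 0.0371) and rho of 0.39 (adjusted p = 0.0804). The r of that pair was 0.43 without the 2 livers farthest in miR-17-5p, and 0.76, 0.57, 0.52 and -0.32 within sets 1 to 4. Over 46 livers, without replicate 2 of both untreated groups at 0 h, r was 0.79 for the miR-19 pair, 0.38 for miR-17-5p with miR-19a and 0.27 for miR-17-5p with miR-19b. The relations of miR-106b with the others had r of 0.21 to 0.27 and did not pass (adjusted permutation p of 0.167 to 0.2). Against log10 total count, miR-19b had r of 0.48 (adjusted permutation p = 0.0371), miR-19a 0.46 (0.0506), miR-17-5p 0.37 (0.0506) and miR-106b 0.24 (0.2). The r of miR-19b was 0.36 without the 2 livers farthest in log10 total count. Livers with fewer counts thus tended to have lower miR-19b values. The part of depth in the spread of resting livers was not tested.

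**Figure D4:**
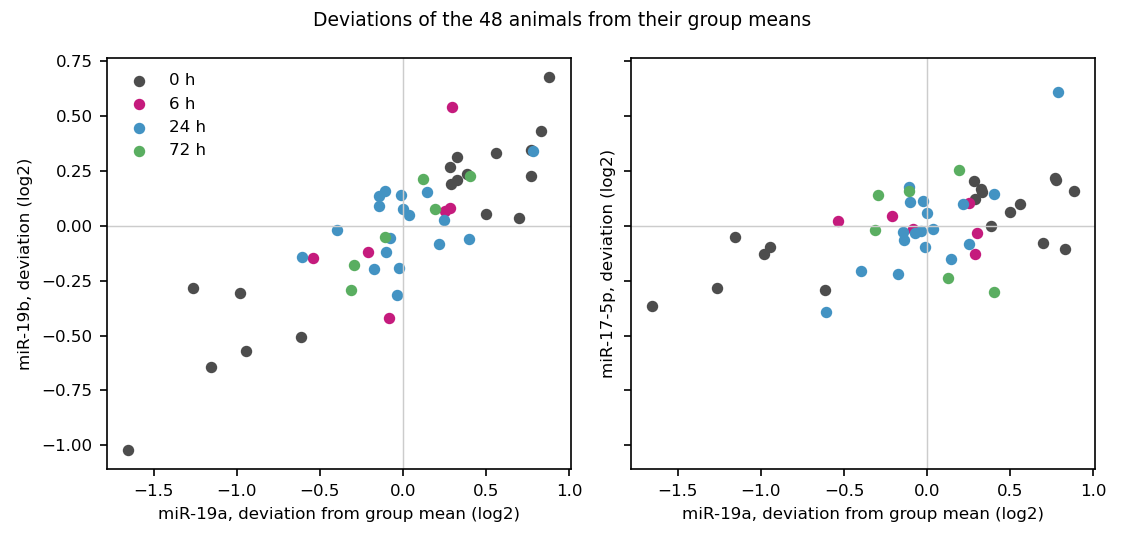
Deviation of each of 48 livers from its group mean (log2) for miR-19b and for miR-17-5p against miR-19a on the horizontal axis. The miR-19 pair lies along a line (r of 0.84), and miR-17-5p scatters more widely around its own (r of 0.55).

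Ethanol feeding was not accompanied by a called difference in any member. Over the untreated livers at all times, EtOH minus CHO was -0.39 for miR-19a (95% confidence interval -0.89 to 0.12, limma adjusted p = 0.2586), -0.08 for miR-17-5p, -0.09 for miR-19b and -0.0005 for miR-106b, where 11.2% of the 143 miRNAs were called. Without CHO replicate 2 at 0 h the difference of miR-19a passed (-0.59, adjusted p = 0.02566), as it did without replicate 2 of both diets (-0.44, adjusted p = 0.01468). The livers left out had the lowest miR-19a at rest, so these p-values are no separate support. Over the 36 livers at 0 and 24 h miR-17-5p was lower on EtOH by -0.18 (95% confidence interval -0.35 to -0.01, adjusted p = 0.1114), where 14% were called, and this passed without EtOH saline replicate 3 at 24 h (-0.23, adjusted p = 0.02505). The differences there were -0.14 for miR-19a and 0.02 each for miR-19b and miR-106b. In the change over time between diets, limma called 0 of 143 miRNAs at 6, 24 and 72 h against 0 h in untreated livers, with 3, 9 and 8 at an unadjusted p under 0.05.

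Under AM21 no member had a called difference. Over both diets and both times AM21 minus the control livers was -0.19 for miR-106b (95% confidence interval -0.38 to -0.01, limma adjusted p = 0.3243) and -0.16 for miR-17-5p (-0.34 to 0.02, adjusted p = 0.3432). It was 0.03 for miR-19a (-0.46 to 0.52) and 0.05 for miR-19b (-0.22 to 0.33), and 5.59% of the 143 miRNAs were called. The interval of miR-19a is thus the widest of the 4. For saline against untreated livers the adjusted p was 0.9708 for each member, where 1.4% of all miRNAs were called. miR-21 itself was among those called (-1.10, limma adjusted p = 0.04067), so the pooled control livers were not alike in miR-21. At 0 h on EtOH its mean was 11.62 log2 CPM (SD 2.27) in saline-treated and 14.72 in untreated livers.

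The relatives of the members by cluster or seed moved in part with them. miR-93, from the miR-106b cluster with the AAAGUGC seed, was higher at 24 h by 0.53 over 36 livers (SE 0.09, adjusted p = 5.273e-05) and at 72 h by 0.69 over untreated livers (SE 0.14, adjusted p = 0.000734). The probe for miR-20a and miR-20b was higher at 24 h by 0.42 (SE 0.09, adjusted p = 0.000508) and from 6 to 72 h by 0.47 (SE 0.14, adjusted p = 0.009629). miR-25, the third hairpin of the miR-106b cluster, differed by 0.0076 at 24 h (95% confidence interval -0.12 to 0.13). miR-32, which shares the miR-25 seed but belongs to neither cluster, differed by 0.04 (95% confidence interval -0.24 to 0.31). Of the 8 measured probes of the clusters and seed families, 6 were called higher and 0 lower at 24 h, with a median difference of 0.48 against 0.05 over all miRNAs, of which 29.4% were called higher and 22.4% lower. From 6 to 72 h 5 were called higher and 0 lower (median 0.55 against 0.02), where 24.5% of all were higher and 22.4% lower. At 6 h 0 were called higher and 1, miR-19a, lower (median -0.28 against 0.07), where 9.09% of all were higher and 15.4% lower. Without replicate 2 of both diets at 0 h, miR-19b (-0.84) and the probe for miR-20a and miR-20b (-0.57, adjusted p = 0.0001438) were called lower at 6 h as well. Those livers were the lowest of their groups in both probes, so these calls are no separate support. The relatives miR-93 and miR-25 went the other way at 6 h, at 0.26 to 0.45 and 0.06 to 0.25 over the settings. miR-93 was called higher in 3 of 12 fits that left out a single liver. The 4 members are among the 8 probes.

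**Figure D5:**
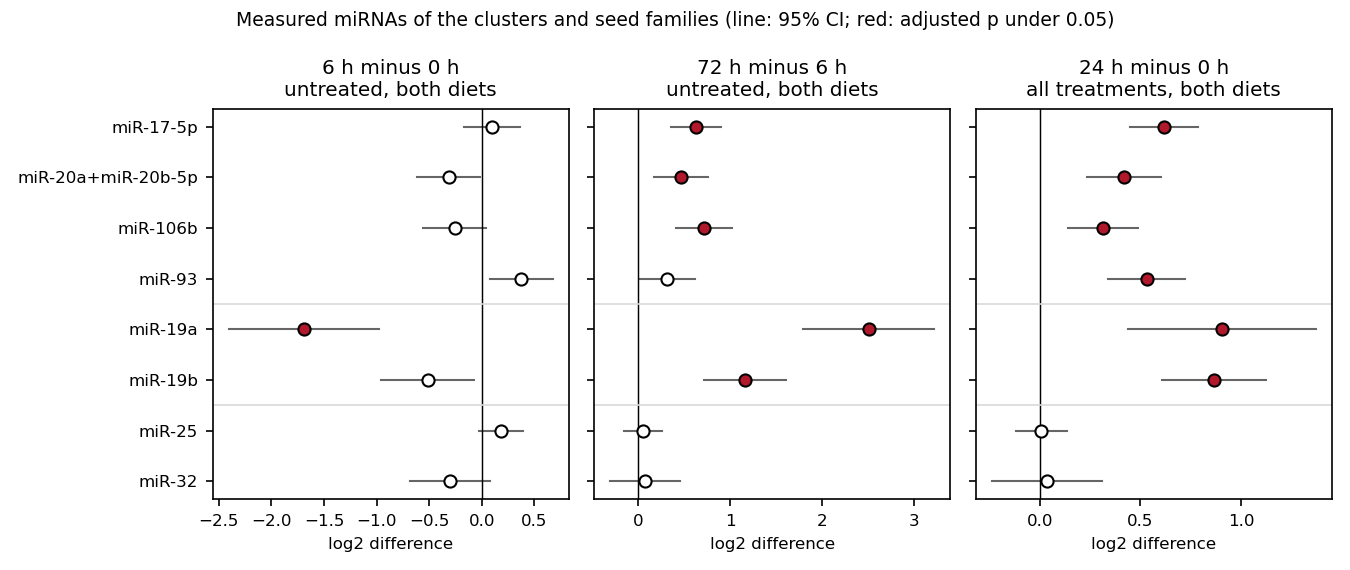
Log2 difference with its 95% confidence interval for the 8 measured probes of the clusters and their seed families in 6 h minus 0 h, 72 h minus 6 h and 24 h minus 0 h, with red marking a limma adjusted p under 0.05. miR-19a has the widest swing (-1.69 and 2.51), and miR-25 and miR-32 lie near 0 at 24 h (0.0076 and 0.04).

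MYC is also known to repress a set of miRNAs, of which 26 were measured. At 24 h 6 of them were called higher and 6 lower, with a median of -0.07 against 0.05 over all miRNAs, of which 29.4% were called higher and 22.4% lower. Among them miR-34a, a p53 target that restrains growth, was higher by 0.74 (adjusted p = 2.554e-06), and miR-150, which is abundant in mature lymphocytes, was lower by 0.50 on the log2 scale (a difference of -0.50, adjusted p = 3.392e-05). From 6 to 72 h 6 were called higher and 5 lower (median -0.02), where 24.5% of all were higher and 22.4% lower, with miR-16, an inhibitor of cell cycle genes, higher by 1.23 (adjusted p = 3.772e-06).

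miRNAs that mark cell types of liver were set beside these changes, with the shares of all miRNAs called in each direction as given above. Endothelial miR-126, the only marker of its list, was lower at 6 h by -0.89 and higher from 6 to 72 h by 0.83, both called, and differed by -0.21 at 24 h. Its level in untreated livers spanned 14.15 to 15.50 at 0 h, 13.68 to 14.39 at 6 h and 14.64 to 15.17 at 72 h, and replicate 2 of each diet at 0 h, the lowest resting livers in miR-19a, were also the lowest of the 18 in miR-126 (14.15 and 14.36). Of 4 stellate and mesenchymal markers, 1 was called higher and 0 lower at 6 h, and 1 each from 6 to 72 h. Their summed level spanned 14.09 to 14.44 at 0 h, 14.48 to 14.92 at 6 h and 13.65 to 14.40 at 72 h. Of 4 leukocyte markers, 1 was called higher at 6 h, and 1 higher and 2 lower from 6 to 72 h, with a summed level of 11.48 to 12.03 at 0 h, 11.65 to 12.18 at 6 h and 11.61 to 11.95 at 72 h. Of 3 hepatocyte markers, 1 was called lower at 6 h and 1 higher from 6 to 72 h, and of both red blood cell markers 0 at 6 h and 1 lower from 6 to 72 h. At 24 h over the 36 livers, 1 hepatocyte marker was called higher (miR-122, by 0.30) and 1 red blood cell marker lower (miR-451, at -0.63). Of the leukocyte markers 1 was higher (miR-223, by 0.41) and 1 lower (miR-150), and of the stellate and mesenchymal markers 2 were higher and 2 lower, among them miR-145 at -0.27. No marker was at 0 in any liver, and the lowest count of any marker was 14. That is no higher than the 15 to 32 counts of miR-21 in AM21-treated livers, so it does not show that each marker was detected. The part of these cell types in the changes of the members was not tested.

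Over the 16 group means, the miRNAs most like each member were named by Pearson's r among the 139 others, as a description with no test. For miR-17-5p they were miR-93 (0.79), the probe for miR-20a and miR-20b (0.79) and miR-34a (0.78). For miR-19a they were miR-195 (0.89), miR-3559-5p (0.87) and miR-374 (0.86), and for miR-19b miR-195 (0.88), the probe for miR-20a and miR-20b (0.87) and miR-374 (0.76). For miR-106b they were miR-28 (0.89), miR-374 (0.86) and miR-34a (0.82). The group means share their libraries' depth and sets. By Spearman's rho, 2 of the 3 names stood for each member. By the deviations of single livers from their group means, 2 of 3 stood for miR-17-5p and 0 for the other members.

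When the 16 groups were ordered by level, few neighbours stood apart by more than the larger of their SDs. This was so for 2 of 15 steps for miR-17-5p, miR-19a and miR-19b each and for 0 steps for miR-106b. For miR-19a the steps were at the lower end, between CHO saline at 0 h and CHO at 6 h (1.24) and between CHO and EtOH at 6 h (0.54). For miR-17-5p a step of 0.16 parted EtOH AM21 at 24 h from CHO saline at 0 h, the highest resting group.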

How the data were processed

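Total RNA of whole liver was measured with the NanoString nCounter assay, which counts each miRNA through a coloured probe. The authors scaled the counts by TMM and deposited voom-transformed log2 CPM for 143 miRNAs in 48 livers, and the filter that kept these miRNAs is not given in the sources used here. Counts were recovered from the values with voom's prior count of 0.5, all within 0.001 of a whole number. edgeR, planned only for deposited counts, was not run. Main tests used limma 3.58.1 in R 4.3.3 (lmFit, then eBayes) on the deposited log2 CPM, with 1 mean per group, in 24 untreated livers or in the 36 livers at 0 and 24 h. Benjamini-Hochberg adjustment ran over all 143 miRNAs in each comparison, and an adjusted p under 0.05 was called. Differences between members and relations over livers were tested by permutation (exact, or 100000 draws, two-sided), and the member differences were chosen after the values were seen. The members and all lists (relatives by cluster or seed, MYC-repressed, cell markers) were chosen with earlier results of these data known. Named miRNAs were the members, their measured relatives, the 3 most like each member, and the first of the MYC list by adjusted p. Same-numbered livers deviated together in all 3 pairs in 4 of 12 comparisons checked, most strongly untreated EtOH and CHO livers at 0 h. The number was therefore a block, for 0 and 24 h only, among the alternatives. These were other scalings (RLE, geometric mean of the 100 highest probes, totals alone), a pseudocount of 2, at least 50 counts in at least 3 livers, voom weights, the block, fits on all 48 livers or only the groups compared, log10 total count as a covariate, other controls, and leaving out each liver. Fits of the 36 livers, member differences, spread and relations without both untreated 0 h livers of replicate 2 were added after the data were seen. Sequences and positions are from RefSeq on GRCr8. The scripts were tested on simulated data. Figures were drawn with matplotlib 3.10.9.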

Additional observations from a re-analysis of the deposited data

How the results depend on the processing

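Of 68 results, 58 kept their side of the threshold under each alternative run, and 30 kept both side and direction. Of 2100 alternative values 16 lost the call and 20 gained it. In 29 results, 19 of them differences between changes, 172 values turned direction, and neither value was called. Among the other 10 were miR-17-5p at 6 h (down to -0.07), miR-19a at 72 h (-0.10 with the covariate) and AM21 minus controls of miR-19a (down to -0.21). The difference of miR-19a at 6 h (-2.42 to -1.62 over the settings, -2.10 to -1.47 leaving out single livers) and the rise of all 4 members from 6 to 72 h stayed called throughout. With scaling by total counts alone, miR-19b was 0.61 at 24 h (adjusted p = 0.07417) and 0.41 at 72 h (0.1731) in untreated livers, miR-106b was 0.23 at 72 h (0.3334) and 0.16 at 24 h over 36 livers (0.1853) with an F of 3.36 on EtOH (0.08975), and EtOH minus CHO of miR-17-5p over 36 livers was -0.27 (0.04058). That scaling also turned miR-25 at 24 h to -0.14 (0.04778), and it moved the median of all miRNAs at 24 h from 0.05 to -0.10. With the geometric mean of the 100 highest probes the diet difference of miR-17-5p was -0.23 (0.02608), and the median of all miRNAs at 6 h moved from 0.07 to 0.14. With log10 total count as a covariate, miR-19b was -0.52 at 6 h (0.02627), 0.53 at 24 h (0.05543) and 0.16 at 72 h (0.6409), miR-106b was 0.39 at 72 h (0.1189), and EtOH minus CHO was -0.77 for miR-19a in untreated livers (0.02455) and -0.29 for miR-17-5p over 36 livers (0.032). Voom weights put miR-19b at 6 h at -0.54 (0.04774). Fits on only the groups compared put miR-19b at 0.76 at 24 h (0.05803) and 0.64 at 72 h (0.0563). With the replicate number as a block, miR-19a at 24 h in untreated livers was 0.82 (adjusted p = 0.02559), and by treatment miR-17-5p in saline-treated (0.0299) and miR-106b in AM21-treated livers (0.04864) also passed, with no other of these calls changed. Without replicate 2 of both diets at 0 h, miR-19a was 0.091 at 24 h and 0.089 at 72 h, miR-19b was -0.84 at 6 h (0.000277), 0.44 at 24 h (0.05062) and 0.32 at 72 h (0.1312), and EtOH minus CHO of miR-19a was -0.44 (0.01468). The cause of these changes was not tested. Replicate 2 at 0 h was the lowest of its untreated group in miR-19a and miR-19b on both diets, so calls gained without it are no separate support.

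Leaving out single livers gave 0.41 to 1.04 for miR-19a at 24 h and at 72 h, -0.77 to -0.35 for miR-19b at 6 h, 0.51 to 0.93 for miR-19b at 24 h, 0.39 to 0.81 for miR-19b at 72 h, 0.38 to 0.52 for miR-106b at 72 h, -0.59 to -0.23 for EtOH minus CHO of miR-19a in untreated livers and -0.23 to -0.15 for that of miR-17-5p over 36 livers. Counts of called miRNAs at 6 h were 35 in the main setting, 17 with only the groups compared, 55 with the geometric mean, 58 with the covariate and 86 without both replicate 2 livers. In untreated livers at 24 h they were 29 and, with only the groups compared, 9, and over 36 livers 74 and, without AM21, 48. Between diets they were 16 in untreated livers, 40 with total counts and 10 with the covariate, and over 36 livers 20 and, with total counts, 36. miR-106b rests on 18 to 114 counts in a liver, which limits its precision.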
